A study of Mus musculus with 38 samples.

Results

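The TGF-beta, BMP, PDGF, Wnt and Notch pathway genes described here were the 46 of 10547 measured genes whose symbols start with Tgfb, Bmp, Pdgf, Wnt, Fzd, Notch, Jag, Dll, Acvr, Smad, Hes or Hey followed by a digit or by a, b, c, d, l or r. They comprised 13 ligands, 20 receptors and 11 intracellular effectors or target genes, plus Bmp1 (a procollagen protease) and Bmp2k (an intracellular kinase), which share only the symbol with the BMP pathway. By pathway, 14 belonged to TGF-beta and activin signalling, 10 to BMP, 6 to PDGF, 7 to Wnt and 7 to Notch.

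The RNA came from C57BL/6 mice that were either wild type (WT) or Trail.mye, in which Lyz2-Cre deletes floxed Tnfsf10, the gene for the death ligand TRAIL, in myeloid cells. Mice of each genotype received either a control diet (CON) or the DDC diet, a porphyrin-raising diet that injures bile ducts, in 3 rounds of 5 days separated by 2 rounds of 3 days on chow, 21 days in all, and the study ended on day 22. In fixed liver sections, circular regions of interest (ROIs) were drawn around portal tracts or in the parenchyma, and whole-transcriptome probes were collected separately from the area stained for PanCK, a keratin stain of bile duct cells (cholangiocytes), and from the area stained for IBA1, a macrophage stain. There were 16 PanCK segments (3 WT CON, 4 WT DDC, 4 Trail.mye CON and 5 Trail.mye DDC), 15 IBA1 segments of the same periportal ROIs (2, 4, 4 and 5) and 7 parenchymal IBA1 segments (1, 2, 2 and 2), 38 in total. The labels name no animal, section or slide, so segments may share a mouse, and every p-value below is too small to stand for a comparison of mice. The segments are stained areas and not single cells, so fewer cells of a type and less RNA per cell cannot be told apart. Tnfsf10 was not analysed here, so the genotype labels were not checked by their target.

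These pathways carry signals between bile duct cells, macrophages, endothelium and the matrix-producing cells around portal tracts. TGF-beta and BMP ligands bind paired serine/threonine kinase receptors that phosphorylate SMAD proteins, and PDGF dimers bind tyrosine kinase receptors found mainly on mesenchymal cells. Wnt proteins bind Frizzled (Fzd) receptors, and Jagged or Delta proteins on one cell bind Notch receptors on its neighbour. In injured bile ducts they are known for their part in duct formation, in the ductular reaction and in the activation of portal fibroblasts and hepatic stellate cells.

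RefSeq promoter sequence (GRCm38.p6) was on hand for 31 of the 46 members. The 100 bases before the start site are shown for 2 members that were higher in PanCK and 2 that were higher in IBA1, those with large differences each way, with CpG pairs in capitals, 5′ to 3′ on the gene's own strand. The start of Jag1 and Tgfb1 is the edge of the annotated gene, while that of Pdgfd and Pdgfra in the promoter table lies inside the annotated gene, which begins at 6168363 and 75151322, so that their windows belong to a later start.
Pdgfd, chr9:6168386-6168485, plus strand: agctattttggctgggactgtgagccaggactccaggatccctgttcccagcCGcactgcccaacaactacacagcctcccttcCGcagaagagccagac
Jag1, chr2:137116521-137116620, minus strand: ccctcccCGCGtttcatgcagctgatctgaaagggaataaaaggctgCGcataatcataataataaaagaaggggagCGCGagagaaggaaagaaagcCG
Pdgfra, chr5:75152151-75152250, plus strand: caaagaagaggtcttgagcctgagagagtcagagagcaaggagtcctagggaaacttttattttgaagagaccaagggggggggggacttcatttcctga
Tgfb1, chr7:25686902-25687001, plus strand: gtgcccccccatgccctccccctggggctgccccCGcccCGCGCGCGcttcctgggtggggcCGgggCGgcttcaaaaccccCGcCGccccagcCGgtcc

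In the 250 bases before these starts, Jag1 held 20 CpG pairs and Tgfb1 21, against 3 for Pdgfd and 4 for Pdgfra. The median was 22 over the 38 promoters of members and 6 over all 32851 promoters. The RBPJ motif GTGGGAA, read on both strands of the 300-base promoter, was found in 2 of the 38 (Bmpr2 and Smad5), which is 5.26%, beside 6.38% of all promoters. The TCF/LEF motif CTTTGAT was found in 0 of the 38, beside 3.73% of all promoters.

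The depth of the segments set what could be seen. Total counts ranged from 20319 to 836971 per segment, with 172180 to 836971 in the PanCK and 158220 to 568720 in the periportal IBA1 segments of DDC-fed Trail.mye mice. The WT periportal IBA1 segments held 20319 to 35208 counts, and there 52.2 to 84.8% of the 46 members stood at a count of 1, the lowest value the table contains, so that a value of 1 is only an upper bound. In the DDC-fed Trail.mye periportal segments 0 to 6.52% of the members stood at 1. Counts are given below either raw or after the authors' third-quartile (Q3) scaling, under which 1 count was worth 5.25 units in the shallowest segments and 0.131 in the deepest, and since each gene has its own probe, levels were compared between segments and not between genes.

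The signal was weak relative to the negative probe, a pool of probes that match no mouse transcript and measure nonspecific counts. The median member stood at 0.869 to 0.975 times the negative probe in the WT periportal IBA1 segments, at 1.38 to 1.82 times in the control-fed Trail.mye ones, and at 1.44 to 4.08 times in the DDC-fed Trail.mye ones. The DDC-fed Trail.mye ROI 035 stood apart: its negative probe read 43.1 counts in PanCK and 27.8 in IBA1, against 1.00 to 6.08 in all other segments, and its median member stood at 1.45 and 1.44 times that level although the ROI had the highest totals. The member calls lost or gained without this ROI are named with the comparison they belong to.

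**Figure D1:**
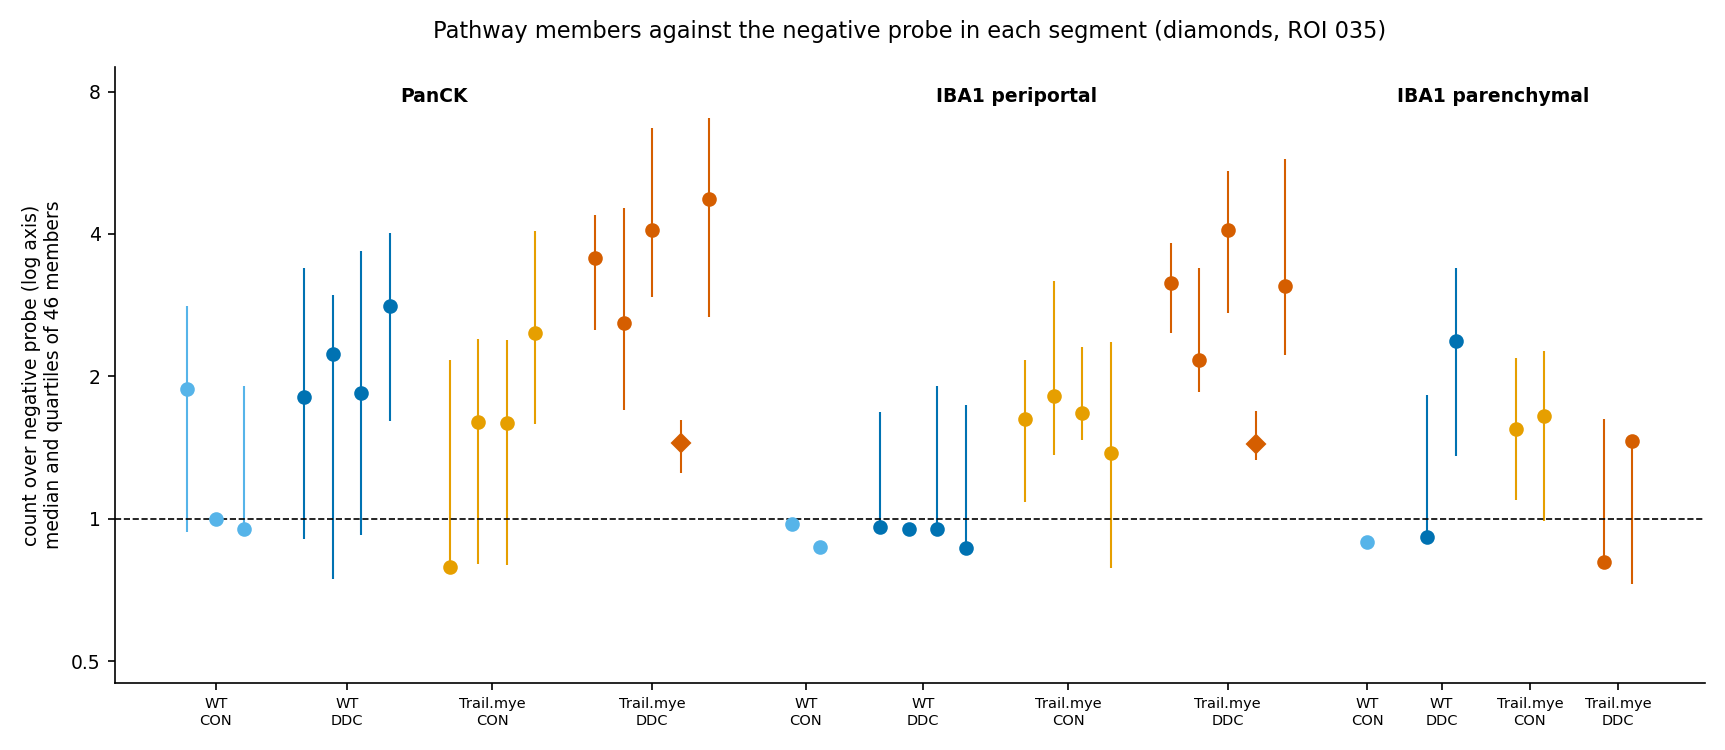
Count of the 46 pathway members divided by the negative-probe count of the same segment (log axis), 1 point per segment at the median with bars to the quartiles, grouped by stain, genotype and diet. The WT periportal IBA1 segments lie between 0.869 and 0.975, and ROI 035 (diamonds) lies at 1.45 and 1.44, below the other 4 periportal ROIs of DDC-fed Trail.mye mice.

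By marker genes the 2 stained areas differed in the direction of their labels, although neither was free of other cell types. All 10 cholangiocyte markers were higher in PanCK than in IBA1 segments, and all 10 macrophage markers were lower. The 10 hepatocyte markers were all lower in PanCK, with a median log2 fold change of -0.71. Their summed Q3 level ran from 944 to 8358 in PanCK and from 1109 to 14538 in periportal IBA1 segments, so hepatocyte RNA was collected with both stains. Of 10 fibroblast and stellate cell markers 8 were lower in PanCK, among them Col1a1 at -1.88, Col3a1 at -1.58 and Dcn at -1.65, and 1 was higher (Rgs5, a pericyte gene, at 1.83). Fibroblast and stellate cell RNA was thus measured in the IBA1 segments as well. The summed Q3 level of these markers ran from 63.0 to 1552 in periportal IBA1 and from 68.3 to 608 in PanCK segments.

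The main comparison set the PanCK segment against the IBA1 segment of the same periportal ROI, 15 ROIs in all. Of the ligands that differed most were higher on the bile duct side, and of the receptors that differed most were higher on the IBA1 side. Of 46 members 20 differed at an adjusted p under 0.05 in edgeR's quasi-likelihood test with the ROI as a block, which is 43.5%, beside 17.8% of all 10547 genes. Of these, 11 were higher in PanCK, beside 7.67% of all genes, and 9 were lower, beside 10.2%. Among the 13 ligands 6 were higher in PanCK (Pdgfd, Pdgfb, Jag1, Tgfb2, Bmp6 and Wnt4) and 1 was lower (Tgfb1). Among the 20 receptors 3 were higher in PanCK (Fzd5, Fzd6 and Bmpr1a) and 7 were lower (Pdgfrb, Pdgfra, Fzd1, Tgfbr2, Acvrl1, Notch3 and Tgfbr1). The median log2 fold change was 0.25 over the ligands, -0.11 over the receptors and -0.03 over all genes. Whether ligands and receptors differ as groups was not tested.

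**Figure D2:**
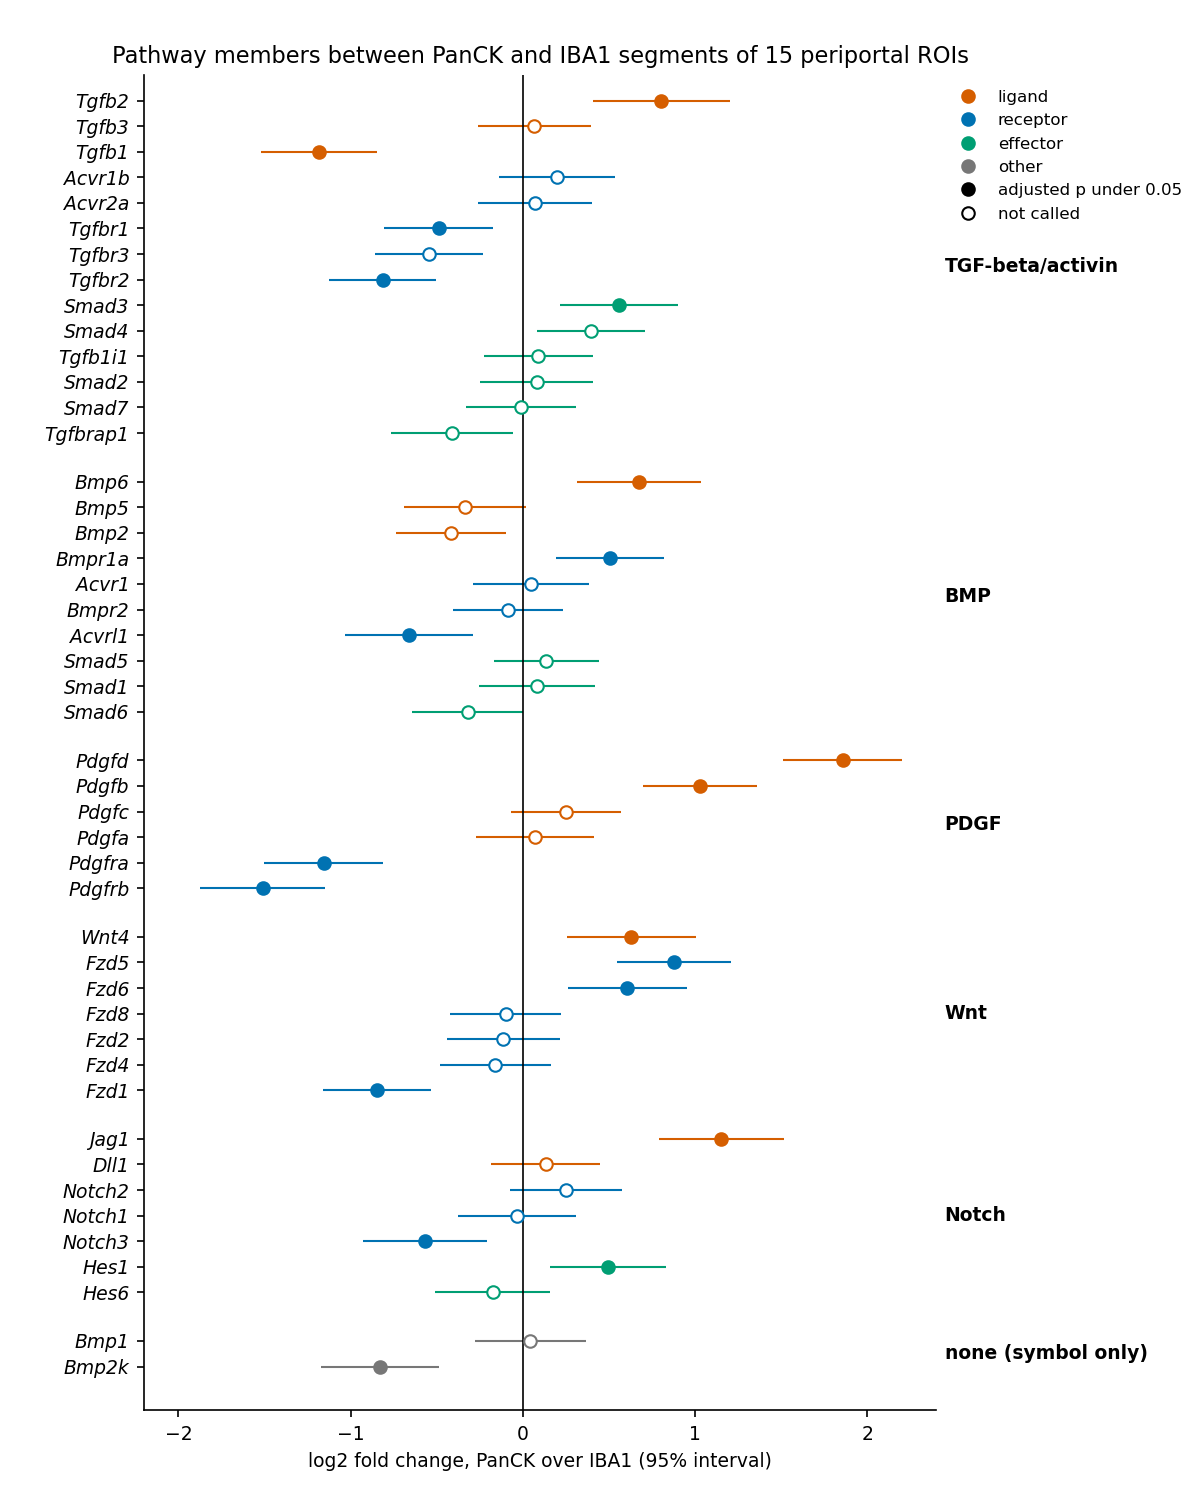
Log2 fold change of PanCK over IBA1 with its 95% interval for the 46 members, ordered by pathway and, within it, by role (colour), from edgeR with the ROI as a block over 15 ROIs. Filled points passed an adjusted p of 0.05, and they run from 1.86 for Pdgfd to -1.51 for Pdgfrb.

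The PDGF pathway divided by role. Pdgfd, a ligand that binds the PDGF receptor beta, read 10.5, 14.6 and 25.2 Q3-normalized counts (lowest, median and highest) in the PanCK segments of the 15 ROIs and 1.62, 5.25 and 6.57 in the IBA1 segments. The ranges did not overlap, and PanCK was higher in 15 of 15 ROIs, with the IBA1 segment at the floor of 1 count in 7. In the 5 DDC-fed Trail.mye ROIs, 032 to 036, the raw counts were 37, 24, 32, 111 and 37 in PanCK against 6, 2, 5, 28 and 5 in IBA1. Its log2 fold change was 1.86 ± 0.18 (SE, n = 15 ROIs, edgeR adjusted p = 8.55e-14).

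Pdgfb, whose dimer binds both PDGF receptors, read 2.63, 11.2 and 29.4 in PanCK and 2.63, 5.25 and 8.65 in IBA1. These ranges overlapped, and PanCK was higher in 12 ROIs, lower in 1 and undecided in 2, where undecided means that a segment at 1 count left the order open. The highest PanCK value was that of the DDC-fed WT ROI 013, at 14 counts. The log2 fold change was 1.03 ± 0.17 (SE, edgeR adjusted p = 1.43e-06). The other 2 PDGF ligands did not pass the test, and for Pdgfc the 95% interval of the log2 fold change ran from -0.07 to 0.57.

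Both PDGF receptors lay on the other side. Pdgfrb, the receptor of pericytes, portal fibroblasts and stellate cells, read 0.70, 5.02 and 10.5 in PanCK and 1.75, 10.5 and 18.0 in IBA1, with a log2 fold change of -1.51 ± 0.19 (SE, edgeR adjusted p = 5.49e-10). Its direction was not the same in all groups. PanCK was lower in 5 of 5 DDC-fed Trail.mye ROIs and in 3 of 4 DDC-fed WT ROIs, where 1 was higher. In the DDC-fed WT ROIs the negative probe was lower in PanCK too, and its part was not tested. On control diet PanCK was lower in 1 of 4 Trail.mye ROIs, where 2 were higher, and in 0 of 2 WT ROIs, where 1 was higher. A difference between diets in this contrast was not tested. In the DDC-fed Trail.mye ROIs the Q3 values were 5.25, 0.70, 5.02, 5.65 and 4.20 in PanCK and 14.2, 12.1, 17.1, 16.1 and 18.0 in IBA1, and these did not overlap. Pdgfra, the receptor for PDGF-A and PDGF-C as well as PDGF-B, read 2.10, 4.94 and 17.5 in PanCK and 4.85, 8.75 and 18.0 in IBA1, with a log2 fold change of -1.16 ± 0.18 (SE, edgeR adjusted p = 2.42e-07). It was lower in PanCK in 8 ROIs, higher in 2 and undecided in 5. Here too the groups differed: PanCK was lower in 5 of 5 DDC-fed Trail.mye ROIs and in 1 of 4 DDC-fed WT ROIs. On control diet it was lower in 1 of 4 Trail.mye ROIs, where 2 were higher, and in 1 of 2 WT ROIs.

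**Figure D3:**
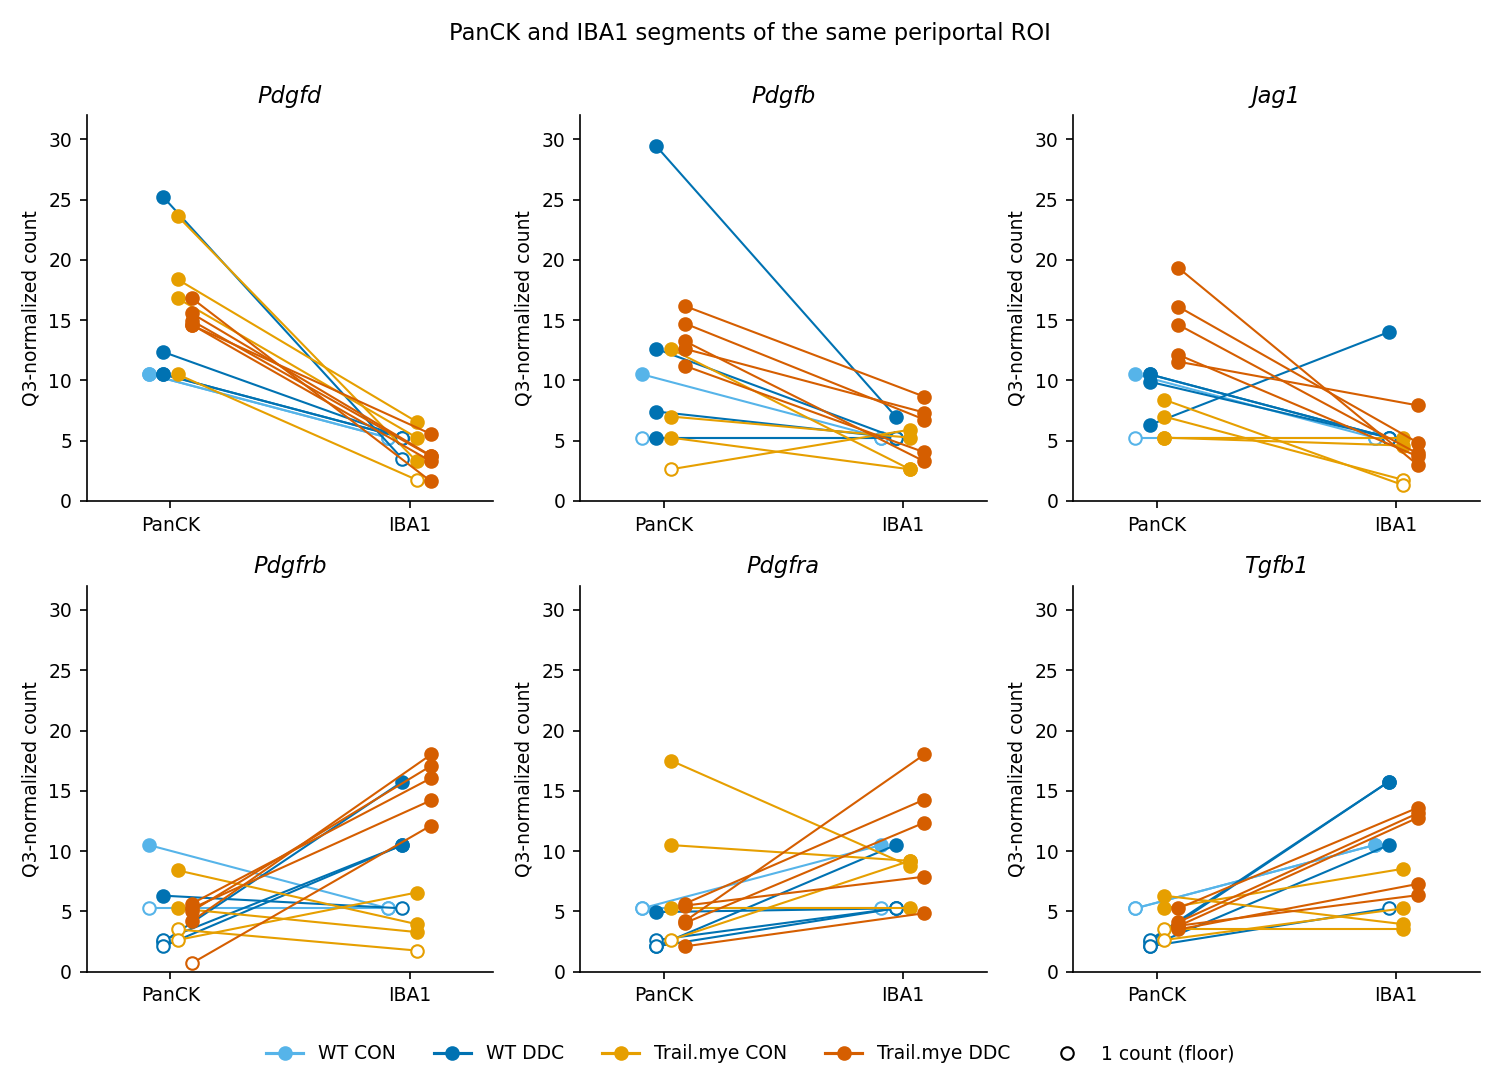
Q3-normalized counts of 3 ligands (Pdgfd, Pdgfb and Jag1), both PDGF receptors and Tgfb1 in the PanCK and IBA1 segments of the 15 periportal ROIs, with a line for each ROI, coloured by genotype and diet. Open points stand at the floor of 1 count, and for Pdgfd every line falls from PanCK to IBA1, from 10.5 or more to 6.57 or less.

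In the Notch pathway the ligand again lay on the duct side. Jag1, a Notch ligand needed for bile duct formation, read 5.25, 10.5 and 19.3 in PanCK and 1.31, 5.25 and 14.01 in IBA1. PanCK was higher in 12 ROIs, lower in 1 and undecided in 2, and the single ROI with the opposite order was the DDC-fed WT ROI 013, with 3 counts in PanCK and 4 in IBA1. In the DDC-fed Trail.mye ROIs the raw counts were 30, 23, 32, 88 and 46 in PanCK against 6, 6, 6, 40 and 4 in IBA1. The log2 fold change was 1.15 ± 0.19 (SE, edgeR adjusted p = 9.22e-07). Hes1, a transcriptional repressor switched on by Notch, was higher in PanCK by 0.49 ± 0.17 on the log2 scale (SE, edgeR adjusted p = 0.0326), in 9 ROIs against 5. Notch3, a receptor of mural cells, was lower by a log2 fold change of -0.57 ± 0.18 (SE, edgeR adjusted p = 0.0309). These last 2 calls were weak: Hes1 was lost without any single one of ROIs 013, 029, 032, 033 and 034 (adjusted p 0.0505 to 0.122) and Notch3 without any single one of ROIs 027, 032, 033 and 036 (0.0608 to 0.157). Dll1, Notch1, Notch2 and Hes6 did not pass the test.

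The Wnt members were few. Wnt4 was the only Wnt ligand among the genes left after the authors' filter, so other Wnt ligands could not be assessed. It read 2.63, 7.56 and 15.8 in PanCK and 1.31, 3.75 and 8.72 in IBA1. Its log2 fold change was 0.63 ± 0.19 (SE, edgeR adjusted p = 0.0219). Its call was lost without any single one of ROIs 027, 029, 032, 033, 034 and 036 (adjusted p 0.0525 to 0.0974). The Frizzled receptors went both ways. Fzd5 was higher in PanCK by 0.88 ± 0.17 on the log2 scale (SE, edgeR adjusted p = 1.22e-04), in 11 ROIs against 1. Fzd6 was higher by 0.61 ± 0.18 (SE, edgeR adjusted p = 0.0241), and lost its call without ROI 027, 028 or 034 (adjusted p 0.0574 to 0.135). Fzd1 was lower by a log2 fold change of -0.85 ± 0.16 (SE, edgeR adjusted p = 2.31e-05), in 9 ROIs against 1, with 5 undecided. In the DDC-fed Trail.mye ROIs Fzd1 read 6.87, 5.60, 8.22, 10.9 and 7.98 in PanCK and 21.0, 12.9, 14.4, 18.6 and 9.75 in IBA1, lower in PanCK in each ROI although the ranges overlapped. The other 3 Frizzled receptors, Fzd4 among them, did not pass the test.

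TGF-beta ligands were opposed. Tgfb1, the isoform made by many macrophages and other leukocytes, read 2.10, 3.78 and 6.30 in PanCK and 3.50, 10.5 and 15.8 in IBA1, with a log2 fold change of -1.18 ± 0.17 (SE, edgeR adjusted p = 1.54e-07). It was lower in PanCK in 12 ROIs, higher in 1 and undecided in 2, with PanCK at the floor in 8. Tgfb2 was higher in PanCK by 0.81 ± 0.20 on the log2 scale (SE, edgeR adjusted p = 0.00369), in 8 ROIs against 1 with 6 undecided, but neither DESeq2 nor limma called it, nor did edgeR in the DDC-fed Trail.mye ROIs alone, and its fold change was below 0 in the WT ROIs alone (-0.17, adjusted p = 0.999). For Tgfb3 the 95% interval of the log2 fold change ran from -0.26 to 0.40.

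Of the receptors that bind these ligands, Tgfbr2 and Tgfbr1 were called as lower in PanCK, Tgfbr1 less evenly over the ROIs. Tgfbr2, which binds TGF-beta first, read 2.63, 7.42 and 13.1 in PanCK and 3.50, 11.8 and 24.3 in IBA1, with a log2 fold change of -0.81 ± 0.16 (SE, edgeR adjusted p = 4.14e-05). Tgfbr1, the kinase it recruits, differed by -0.49 ± 0.16 (SE, edgeR adjusted p = 0.0231). This call was lost without ROI 032 or 034 (adjusted p 0.0772 and 0.0976). The Tgfbr1 fold change was above 0 in the WT ROIs alone (0.30, adjusted p = 0.999). It read 2.47, 6.30 and 12.6 in PanCK and 2.63, 5.91 and 17.1 in IBA1, so that the PanCK median was the higher one. PanCK was lower in 8 ROIs, among them the 5 of DDC-fed Trail.mye mice, higher in 3 and undecided in 4. Tgfbr3, the co-receptor betaglycan, fell just outside the threshold at -0.54 ± 0.16 (SE, edgeR adjusted p = 0.0586). Among the SMADs only Smad3, an effector of TGF-beta, passed, higher in PanCK by 0.56 ± 0.17 on the log2 scale (SE, edgeR adjusted p = 0.0286) in 12 ROIs against 1, and lost without ROI 026, 033, 034 or 036 (adjusted p 0.0510 to 0.105). Smad4, the shared partner of all receptor-activated SMADs, was just outside at 0.40 ± 0.16 (SE, edgeR adjusted p = 0.0838). The other members of the pathway did not pass, Smad2, Smad7 and Acvr1b among them. Without ROI 035 Tgfbrap1, which binds the TGF-beta receptors inside the cell, was called as lower in PanCK (-0.87, adjusted p = 0.0362).

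In the BMP pathway 3 of 10 members passed. Bmp6, known in the liver for inducing hepcidin, was higher in PanCK by 0.67 ± 0.18 on the log2 scale (SE, edgeR adjusted p = 0.00419), in 9 ROIs against 2, and was lost without ROI 036 (0.43, adjusted p = 0.156), where it read 16.4 in PanCK and 2.25 in IBA1. Bmpr1a, a type I BMP receptor, was higher by 0.51 ± 0.16 (SE, edgeR adjusted p = 0.0192), and was lost without ROI 035 (0.44, adjusted p = 0.188). Acvrl1, a BMP receptor of endothelium, was lower with a log2 fold change of -0.66 ± 0.19 (SE, edgeR adjusted p = 0.00746). It was also lost without ROI 035 (-0.59, adjusted p = 0.0838). Its direction differed between groups: PanCK was lower in 7 ROIs, higher in 5 and undecided in 3. It was lower in 5 of 5 DDC-fed Trail.mye ROIs and 1 of 2 control-fed WT ROIs. In 3 of 4 control-fed Trail.mye ROIs and 2 of 4 DDC-fed WT ROIs it was higher. Of the endothelial marker list 3 of 8 measured genes were lower in PanCK. The other 7 did not pass, although limma called Bmp2 as lower in PanCK (-0.72, adjusted p = 0.00576). Bmp2k, outside the pathway, was lower in PanCK by a log2 fold change of -0.83 ± 0.17 (SE, edgeR adjusted p = 2.01e-04).

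Most of the calls could be made from the deep segments alone. In the 5 DDC-fed Trail.mye ROIs, where every pair could be ordered, 10 members (21.7%) were higher in PanCK in all 5, beside 11.7% of all genes, and 9 (19.6%) were lower in all 5, beside 11% of all genes. With these 5 ROIs alone 14 of the 20 calls were made, without Tgfb2, Wnt4, Fzd6, Smad3, Bmpr1a and Notch3. With all ROIs of Trail.mye mice 16 were made, and with the ROIs of WT mice alone 0 were, at 174 calls over all genes. Of the 10 fibroblast and stellate cell markers 8 were higher in IBA1, as were these receptors on the IBA1 side, and 1 (Rgs5) was higher in PanCK. The part of such cells in the receptors' levels was not tested. After subtraction of the negative probe from each segment, in limma, 8 members were called: Pdgfd, Pdgfb, Jag1, Wnt4, Fzd5, Fzd6 and Smad3 higher in PanCK and Tgfb1 lower, so that none of the 7 receptor calls on the IBA1 side was made in that setting. Without the subtraction limma made 2 of these 7, Pdgfrb and Pdgfra.

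Other genes of the same pathways gave a mixed picture. Among 28 measured genes of the TGF-beta, activin and BMP list 5 were higher and 6 lower in PanCK. Those higher included both chains of the integrin that releases latent TGF-beta at epithelia, Itgb6 at 1.66 ± 0.20 and Itgav at 1.28 ± 0.17 on the log2 scale (SE, edgeR adjusted p = 2.86e-10 and 1.17e-08), with Id2, Ccn2 and Ltbp3. Those lower were Tgfbi, a matrix protein induced by TGF-beta, at -1.29, Id3 at -1.16, the endothelial co-receptor gene Eng at -1.09, and Fstl1, Ltbp4 and Hamp. In the PDGF list 1 of 7 was higher (Src, a kinase downstream of PDGF receptors, at 1.02) and 2 were lower (Grb2 and Pik3r1). In the Wnt list 1 of 20 was higher (Ctnnb1, beta-catenin, at 1.12) and 3 were lower (the secreted Sfrp1 at -1.36 and Dkk3 at -1.16, and Nkd1). In the Notch list 0 of 21 were higher and 1 was lower (Lfng, which adds sugars to Notch, at -0.74).

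Between diets, members were called in 1 of the groups, the periportal IBA1 segments of Trail.mye mice (4 CON and 5 DDC), at a share close to that of all genes. The 4 called, all receptors and all higher on DDC, were Fzd1, Pdgfrb, Tgfbr1 and Tgfbr2. That is 8.70% of the members, beside 9.38% of all genes, or, for genes higher on DDC, 4.2% of all genes. The 4 calls were made among 20 receptors, while 0 of 13 ligands and 0 of 11 effectors were called. At an unadjusted p under 0.05 there were 7 members, which is 15.2%, beside 21.1% of all genes. These counts are no result about the members as a set, and the called receptors are described one by one. Without ROI 035 the ligand Tgfb1 was called as well (0.96, adjusted p = 0.0398).

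Fzd1 read 3.50, 3.94, 3.28 and 2.63 Q3-normalized counts in the control-fed segments and 21.0, 12.9, 14.4, 18.6 and 9.75 in the DDC-fed ones, which did not overlap. In raw counts this was 2, 3, 5 and 2 against 34, 16, 22, 94 and 13, or 0.789 to 1.36 times the negative probe against 3.38 to 9.98 times. The control-fed segments were therefore at the level of the negative probe, and the log2 fold change of 2.24 ± 0.33 (SE, edgeR adjusted p = 9.08e-07) rests on values near the background on that side.

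Pdgfrb rose as well. It read 1.75, 6.57, 3.28 and 3.94 on control diet and 14.2, 12.1, 17.1, 16.1 and 18.0 on DDC, again without overlap. The control-fed segments held 1, 5, 5 and 3 raw counts, ROI 026 being at the floor, or 0.543 to 2.27 times the negative probe, against 2.91 to 11.8 times on DDC. With control values this near the background, the log2 fold change was 1.98 ± 0.30 (SE, edgeR adjusted p = 2.43e-06). Tgfbr1 read 3.50, 6.57, 5.91 and 2.63 against 12.4, 14.5, 17.1, 11.9 and 13.5, without overlap. Its log2 fold change was 1.42 ± 0.28 (SE, edgeR adjusted p = 3.46e-04). Its control values of 3.50 and 2.63 equalled those of Fzd1 in the same segments, so they too were near the negative probe. The Tgfbr1 call was lost in limma after subtraction of the negative probe. Tgfbr2 read 7.00, 11.8, 10.5 and 5.25 against 14.8, 14.5, 24.3, 16.1 and 15.8, without overlap, and its log2 fold change was 0.90 ± 0.27 (SE, edgeR adjusted p = 0.0220). The Tgfbr2 call was lost without the control-fed ROI 026 or 029 or the DDC-fed ROI 034 (adjusted p 0.0573 to 0.121).

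**Figure D4:**
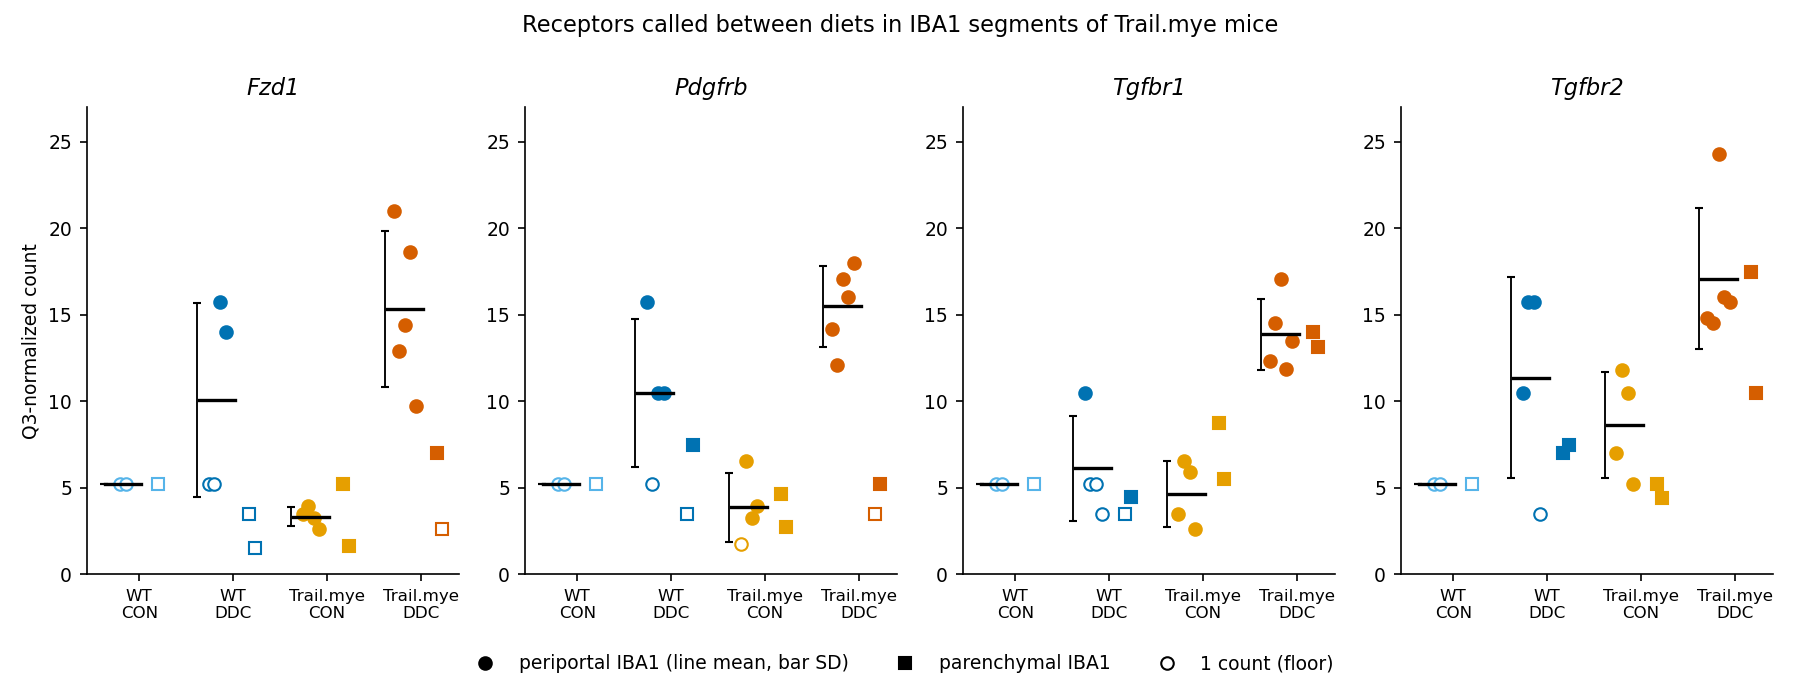
Q3-normalized counts of Fzd1, Pdgfrb, Tgfbr1 and Tgfbr2 in each IBA1 segment by genotype and diet, with periportal segments as circles (line for the mean, bar for the SD) and parenchymal segments as squares. Open symbols stand at 1 count, and in each panel the 5 DDC-fed Trail.mye periportal segments lie above the 4 control-fed ones, for Fzd1 at 9.75 to 21.0 against 2.63 to 3.94.

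In the same comparison 5 of 10 fibroblast and stellate cell markers rose on DDC, with Col1a1 at 3.73, Col1a2 at 3.30, Col3a1 at 3.28, Lum at 1.97 and Dcn at 1.72 on the log2 scale, and their summed Q3 level went from 94.5 to 249 on control diet to 648 to 1552 on DDC. The other 5, Des (0.05), Acta2 (0.29), Lrat (0.44), Thy1 (0.48) and Rgs5 (0.56), did not pass. Of the hepatocyte markers 9 of 10 fell, and 2 of 10 macrophage and 2 of 8 endothelial markers fell. The part of these shifts in the receptors' rise was not tested. Other pathway genes that rose were Fstl1, Tgfbi, Ltbp2, Ltbp3, Id3 and Thbs1 of the TGF-beta list, at 0.98 to 2.03 on the log2 scale, Dkk3 at 2.39, Sfrp1 at 1.71 and Wls at 0.98 of the Wnt list, and Numbl and Dtx3 of the Notch list, while Hamp, the hepcidin gene, fell with a log2 fold change of -1.89.

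In WT periportal IBA1 segments (2 CON and 4 DDC) the same receptors could not be followed in the control group, where each was at 1 count in both segments. On DDC, Pdgfrb read 3, 1, 2 and 3 counts, Fzd1 1, 1, 3 and 4, Tgfbr1 2, 1, 1 and 1, and Tgfbr2 2, 3, 3 and 1. No member was called (edgeR, 0 of 46, beside 1.19% of all genes, 1 at an unadjusted p under 0.05, 0 with DESeq2 and 1 with limma). The lowest adjusted p was that of Hes6, a HES-family factor of the Notch list, which stood at 4 and 5 counts on control diet and at the floor in all 4 DDC-fed segments (adjusted p = 0.205). limma on the Q3 values called it (adjusted p = 0.00109). The receptors' change on DDC was not shown to differ between genotypes: the interaction of diet and genotype in periportal IBA1 gave 0 of 46 members in edgeR, beside 0.0569% of all genes, with 1 at an unadjusted p under 0.05 and 0 with DESeq2 and limma.

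Between genotypes on DDC, periportal IBA1 segments differed in 0 of 46 members (edgeR, beside 0.019% of all genes, 1 at an unadjusted p under 0.05, 0 with DESeq2 and limma). That member was Tgfbr1, higher in Trail.mye with a log2 fold change of 1.19 and a 95% interval from 0.23 to 2.14 (adjusted p = 1.00). With the negative probe subtracted, limma called 16 members, all higher in Trail.mye, among 2664 genes overall. The Trail.mye segments of this comparison held 158220 to 568720 counts and the WT ones 20319 to 34302, and what part this gap in depth plays was not tested.

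In cholangiocyte segments no member passed the test for the diet in either genotype, for the genotype on DDC or for their interaction. The genotypes were not compared on control diet. Of the members 47.8 to 76.1% stood at 1 count in control-fed WT PanCK segments, 21.7 to 37.0% in DDC-fed WT and 10.9 to 52.2% in control-fed Trail.mye ones. The median member stood as low as 0.953, 1.81 and 0.789 times the negative probe there. With values this near the floor, the missing calls do not show that duct segments were unchanged. In WT PanCK the diet comparison gave 0 of 46, beside 0.91% of all genes, with 1 at an unadjusted p under 0.05 (edgeR), 0 with DESeq2 and 1 with limma. This was Smad3, at 16.3 ± 1.01 Q3-normalized counts on control diet (SD, n = 3) and 6.37 ± 4.91 on DDC (SD, n = 4, edgeR adjusted p = 0.582, limma 0.0385). In these segments 1 raw count was worth 3.50 to 5.25 Q3 units on control diet and 2.10 to 2.63 on DDC. The Smad3 levels thus rest on few counts, and the control SD is smaller than 1 count. Of the other pathway genes Itgav and Ccn2, a matrix protein gene induced by TGF-beta, were higher on DDC in these WT segments, Ccn2 by 1.81 on the log2 scale (edgeR adjusted p = 0.0460 for Itgav and 0.0486 for Ccn2). In Trail.mye PanCK the diet comparison gave 0 of 46, beside 2.1% of all genes, and 0 with DESeq2 and limma. At an unadjusted p under 0.05 there were 7 (15.2%, beside 11.3% of all genes), all with a higher estimate on DDC, in a comparison whose median log2 fold change was 0.18 over all genes and 0.04 over the members (edgeR: Fzd1, Tgfbr1, Bmp6, Jag1, Pdgfb, Dll1 and Hes1). The lowest adjusted p was that of Fzd1, at a log2 fold change of 1.34 with a 95% interval from 0.36 to 2.32 (adjusted p = 0.197). For Jag1 it was 0.216, and its raw counts were 2, 2, 2 and 4 on control diet and 30, 23, 32, 88 and 46 on DDC, in segments of 35079 to 54834 and 172180 to 836971 total counts. Other pathway genes were called there, all higher on DDC: Thbs1 at 1.98, Ltbp2 and Itgav at 1.55 and 1.54, Src at 1.54 and the gamma-secretase gene Aph1a at 1.67 on the log2 scale.

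Trail.mye and WT PanCK segments on DDC differed in 0 of 46 members (edgeR, beside 0.152% of all genes, 1 at an unadjusted p under 0.05, 0 with DESeq2 and limma). The member was Notch2, a Notch receptor of the biliary lineage, at 17.5 ± 3.57 Q3-normalized counts in WT (SD, n = 4) and 10.5 ± 2.16 in Trail.mye (SD, n = 5), with a log2 fold change of -0.72 and a 95% interval from -1.32 to -0.11 (edgeR adjusted p = 0.458). The interaction of diet and genotype in PanCK gave 0 of 46, beside 0.114% of all genes, with 0 at an unadjusted p under 0.05 (edgeR), 0 with DESeq2 and 0 with limma. The comparisons within a stain overlap in their segments: the genotype comparison uses the DDC-fed segments of the diet comparisons, and the interaction uses all 4 groups.

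Position in the lobule gave no call either. Between the 15 periportal and the 7 parenchymal IBA1 segments 0 of 46 members passed (edgeR, beside 2.23% of all genes), with 0 in DESeq2 and 1 in limma (Fzd1, adjusted p = 0.0387). At an unadjusted p under 0.05 there were 8 (17.4%, beside 10.95% of all genes), all with a higher periportal estimate, led by Smad3 with a log2 fold change of 1.05 and a 95% interval from 0.33 to 1.77 (edgeR adjusted p = 0.146). Here 6 of 10 fibroblast and stellate cell markers were higher in the periportal segments, and so were Sfrp1, Fstl1, Ltbp2 and Ltbp3, at 1.13 to 1.69 on the log2 scale. In parenchymal IBA1 (3 CON and 4 DDC, genotypes combined) the diet gave 0 of 46, beside 0.759% of all genes, with 2 at an unadjusted p under 0.05 (Tgfbr2 and Dll1, edgeR) and 0 with DESeq2 and limma. Tgfbr2 read 5.25 in the WT control segment, 7.00 and 7.50 in the DDC-fed WT, 5.25 and 4.42 in the control-fed Trail.mye and 17.5 and 10.5 in the DDC-fed Trail.mye segments, the last at 5 and 4 raw counts (edgeR adjusted p = 0.543).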

How the data were processed

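Segments were collected with mouse whole-transcriptome probes, sequenced and, according to the submitters' processing notes, handled with bcl2fastq and mm10. The authors filtered out genes and segments of low signal by a limit of quantification. A gene kept this way need not exceed that limit in every segment. The authors deposited 2 tables. The first holds estimated counts per gene and segment, whole except for 3 genes and the negative probe, with a lowest value of 1. In the other the authors had scaled these to a Q3-normalized signal, deposited as the count times 1 factor per segment. Labels gave stain, genotype and diet.

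Counts were rounded and all 10547 genes were tested, without a filter on low counts, by the quasi-likelihood test of edgeR 4.0.16 with upper-quartile (75%) factors and Benjamini-Hochberg adjustment at 0.05. The negative probe, at most 0.00517% of a segment's counts, stayed out. PanCK and IBA1 segments of an ROI come from the same tissue, so the ROI was a block. Over the 15 ROIs the correlation of the paired segments' deviations from their group means, across 3089 genes with a mean count of at least 10, had a median of 0.03 and ran from -0.02 to 0.53, above 0.1 in 5. Diet, genotype and their interaction were fitted over the 4 groups of each periportal stain, the parenchymal diet effect with the genotype as a term, and periportal against parenchymal IBA1 with the genotype and diet group as a term. DESeq2 1.42.0, limma 3.58.1 on log2(Q3 value + 1), TMM factors, a filter on low counts, counts of 1 set to 0, thinning to equal depth after setting counts of 1 to 0 (5 draws), and leaving out each ROI were alternatives. Subtraction of the negative probe and subsets of ROIs were added after the data were seen. The fits were also run on simulated counts with known changes. That simulation modelled neither segments sharing a mouse nor a segment with a high negative probe, and no result here rests on it.

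The members and gene lists were chosen with earlier results of these data known. Genes named were those called in any comparison and the 3 members with the highest mean in each pathway and role. Bmp1 is named for its class, and Tgfbr3 and Tgfbrap1 were chosen after their values were seen. Depth was 20319 to 836971 counts per segment, and intervals cover the fitted error only. RefSeq symbols matched all 46 members.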

Additional observations from a re-analysis of the deposited data

Results flagged for a closer look

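Among the 20 called members, single segments were compared with the rest of their group where the group held 4 to 10 segments and none stood at 1 count, which gave 62 groups, of which chance alone would pick out about 5%. A gap to the nearest segment that was large for the group's range was found in 4. In PanCK segments of DDC-fed WT mice ROI 013 was far from the others for both Pdgfd (25.2 Q3-normalized counts, the others 10.5 to 12.4) and Jag1 (6.30, the others 9.89 to 10.5), at 12 and 3 raw counts. In periportal IBA1 segments of control-fed Trail.mye mice Pdgfra read 5.25 in ROI 028, the others 8.75 to 9.19. In periportal IBA1 segments of DDC-fed Trail.mye mice Tgfbr2 read 24.3 in ROI 034, the others 14.5 to 16.1.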

How the results depend on the processing

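Between PanCK and IBA1 segments the number of members called went from 20 to 13 with DESeq2, 12 with limma, 12 with counts of 1 set to 0, 8 with limma after subtraction of the negative probe, 0 with counts of 1 set to 0 and segments thinned to equal depth, 0 with the ROIs of WT mice alone, and 1 with the filter on low counts, which left 2 members to test. DESeq2 and limma both lost Acvrl1, Bmp6, Bmpr1a, Hes1, Notch3, Tgfb2 and Tgfbr1, and limma also Fzd1 and Tgfbr2. The number was 20 with TMM factors, 19 without the ROI as a block for the pairing of segments, 16 with the Trail.mye ROIs, 14 with their DDC-fed ROIs, and 15 to 20 when 1 ROI was left out. Taken over all genes, the median of the log2 fold changes was -0.09 in limma without and 0.12 with the negative probe subtracted, and -0.03 in edgeR. TMM factors moved it from 0.18 to -0.06 for the diet in Trail.mye PanCK, from -0.17 to 0.02 in WT PanCK and from 0.30 to -0.14 for the PanCK interaction, with 0 members called either way. In the WT ROIs Tgfb2 (-0.17) and Tgfbr1 (0.30) changed sign. For the diet in Trail.mye periportal IBA1 the 4 calls became 0 with counts of 1 set to 0 and thinning, 3 with limma and 2 with limma after subtraction (Fzd1 and Pdgfrb), and 3 to 5 with 1 segment left out. Tgfbr2 was also lost with TMM factors, DESeq2, limma and counts of 1 set to 0. Where 0 members were called, limma called 1 in WT PanCK (Smad3), 1 in WT periportal IBA1 (Hes6) and 1 between periportal and parenchymal IBA1 (Fzd1), where 0 to 1 were called with 1 segment left out (Fzd1, without the control-fed Trail.mye parenchymal ROI 030). Counts of 1 set to 0 gave 1 in WT periportal IBA1, and limma after subtraction gave 3 in WT PanCK, 1 in WT periportal IBA1 and 16 between genotypes on DDC in periportal IBA1. The causes were not tested. In the other comparisons 0 members were called in every setting run. The filter on low counts could call none in the PanCK diet, genotype and interaction fits or in the parenchymal diet fit. It left 0 members to test there, and 12 in the periportal IBA1 fits. Shallow WT segments, the floor of 1 count, unknown animals behind the segments, and ROI 035 with its high negative probe limit these results.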
